A study of Homo sapiens with 6 samples.

Results

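Regulators and markers of the epithelial-mesenchymal transition (EMT), 10 genes in all, were followed through the compartment maps of T47D cells, an established estrogen receptor α-positive luminal breast cancer line. They were taken as a list of names: the EMT transcription factors ZEB1, ZEB2, SNAI1, SNAI2, TWIST1 and TWIST2, the mesenchymal genes VIM and FN1, and the epithelial regulators GRHL2 and ESRP1. For each gene, the 100 Kb bins of hg19 that its GENCODE gene body touches were read, with 5 further bins on either side. This gave 119 bins of the 27898 that had a score in every library, and 10 of the 19710 protein-coding genes that could be scored in the same way.

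Tethered chromatin capture (TCC), a form of Hi-C, measures how often pairs of genomic regions touch in the nucleus. Parental T47D cells were kept without hormone for 72 h and taken before E2 (T0) or 1, 4, 16 and 24 h after 100 nM E2 was added (T1, T4, T16 and T24). Tamoxifen-resistant T47D cells (TamR), a separately derived line, formed the sixth condition. Their labels call them untreated, while the study's cell culture methods describe TamR cells as kept in charcoal-stripped serum with 100 nM tamoxifen, so that the resistant state and the culture cannot be told apart. Each condition has 1 deposited track of scores, called a library here, so no test between conditions was possible, and the spread of the 5 parental libraries, which are different conditions, is the nearest thing to an error. The values are first-eigenvector scores, given here multiplied by 1000. Bins above 0 belong to compartment A, the active chromatin, and bins below 0 to compartment B, the inactive chromatin. A gene's score is the mean over its gene-body bins. The scores are relative to the other bins of a library, the depth behind them is unknown from these files, and they say nothing of expression.

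EMT is the program by which epithelial cells lose their junctions and polarity and take on a migratory, mesenchymal state. The ZEB, SNAI and TWIST proteins are transcription factors that drive it, and ZEB and SNAI proteins repress epithelial genes such as CDH1 by binding E-boxes. Vimentin (VIM), an intermediate filament protein, and fibronectin (FN1), a matrix protein, are products of mesenchymal cells. GRHL2, a transcription factor, and ESRP1, a splicing regulator, keep cells epithelial. GRHL2 and ZEB1 repress each other, and the miR-200 family represses ZEB1 and ZEB2, while ZEB1 in turn represses the miR-200 genes. T47D is a luminal line with an epithelial form.

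The miR-200 sequences are shown because their seeds (bases 2 to 8, in capitals) are the part that pairs with the ZEB1 and ZEB2 messages. They are RefSeq mature sequences and fall into 2 seed groups, AAUACUG for miR-200b, miR-200c and miR-429 and AACACUG for miR-200a and miR-141.
hsa-miR-200b-3p: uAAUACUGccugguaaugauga
hsa-miR-200c-3p: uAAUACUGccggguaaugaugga
hsa-miR-429: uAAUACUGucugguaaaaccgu
hsa-miR-200a-3p: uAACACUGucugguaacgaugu
hsa-miR-141-3p: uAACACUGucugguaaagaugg

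The upstream sequences of ZEB1 and VIM are shown because ZEB1 was the member with another compartment in TamR than at T0 and VIM the other member with switched bins beside it. Both are the 250 bases before a RefSeq start, found once each in GRCh37, on the + strand. E-boxes (CACCTG or CAGGTG, the same motif on either strand) are in capitals. The ZEB1 sequence, chr10:31607096-31607345, holds 1, and the VIM sequence, chr10:17269990-17270239, holds none.
ZEB1: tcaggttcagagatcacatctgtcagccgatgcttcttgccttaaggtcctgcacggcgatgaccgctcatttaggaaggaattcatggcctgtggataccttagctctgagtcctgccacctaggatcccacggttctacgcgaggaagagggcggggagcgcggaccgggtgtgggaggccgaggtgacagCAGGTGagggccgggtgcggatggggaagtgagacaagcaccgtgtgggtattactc
VIM: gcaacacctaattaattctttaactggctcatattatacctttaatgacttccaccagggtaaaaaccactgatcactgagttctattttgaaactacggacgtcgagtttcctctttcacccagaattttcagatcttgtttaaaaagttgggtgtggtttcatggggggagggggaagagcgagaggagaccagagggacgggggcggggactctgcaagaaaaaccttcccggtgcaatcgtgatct
The promoter table held 11 starts of 5 members, 7 of them ZEB1 starts. The E-box was found before 2 of these 11 starts, both of ZEB1, and before 17.5% of all 35116 starts of the table. The palindromic estrogen response element GGTCANNNTGACC was found before 0 of the 11 and before 0.0399% of all starts.

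At T0 the list was split evenly. SNAI1, TWIST2, FN1, GRHL2 and ESRP1 had positive scores, and ZEB1, ZEB2, SNAI2, TWIST1 and VIM negative ones, where 77.4% of all protein-coding genes were in A. The highest was SNAI1 at 11.14 and the lowest TWIST1 at -6.87. The paralogs thus lay on opposite sides in the SNAI and TWIST pairs in all 6 libraries, and the epithelial regulators were in A throughout. ZEB1 lay closest to the border, at -1.33.

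**Figure D1:**
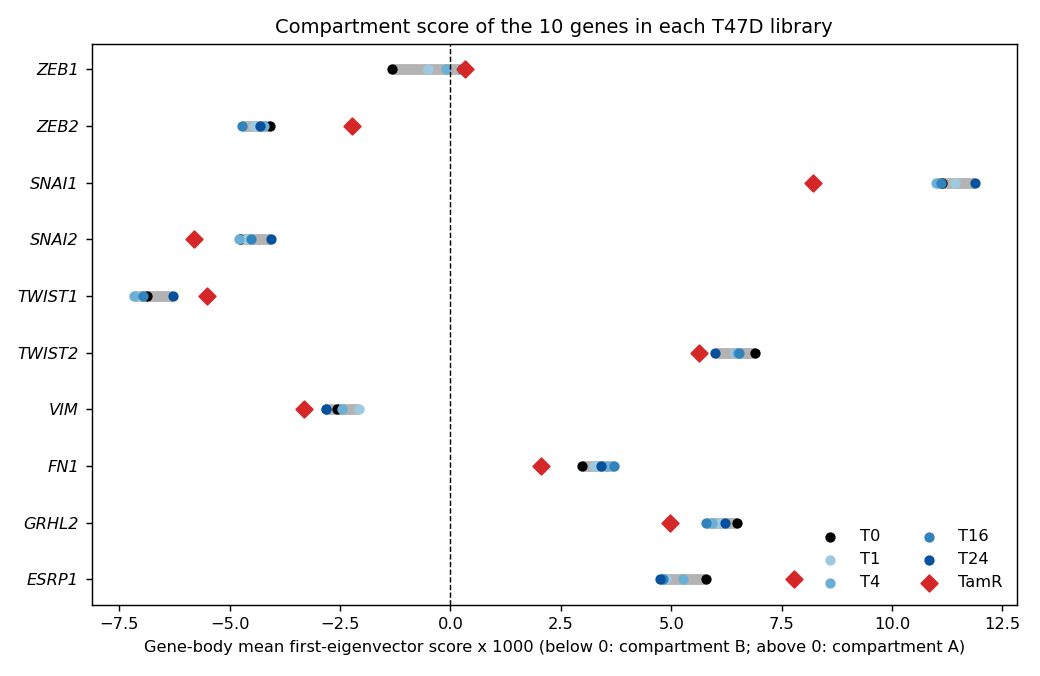
Gene-body mean score (x axis, multiplied by 1000) of each of the 10 genes in the 6 libraries; circles are T0 (black) and the E2 time points (blue), red diamonds are TamR, and grey bars span the 5 parental libraries. ZEB1 is the only gene whose points lie on both sides of the border at 0, from -1.33 at T0 to 0.33 at T16 and in TamR.

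ZEB1, the zinc finger repressor of CDH1, was the only member whose compartment differed from that at T0, in E2 and in TamR. The gene lies on the + strand at chr10:31607424-31818742 (ENSG00000148516.23_13) and touches 3 bins. Its score was -1.33 at T0, -0.51 at T1, -0.090 at T4, 0.33 at T16, 0.27 at T24 and 0.33 in TamR. All 4 E2 libraries were above T0 and the later pair was in A, as was TamR, whose value did not exceed that of T16. Among all scored genes, 5.15% went from B at T0 to A in TamR and 4.45% from A to B, 9.6% in all, against 1 and 0 of the 10 members, and 5.31% had another sign than T0 at 1 or more E2 times, against 1 of 10. The members' counts were thus near the background.

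The ZEB1 values were small on the scale of the scores. Its difference between TamR and T0, 1.66, was larger in size than that of 60.2% of genes, and its parental range, also 1.66, was wider than that of 79.3% of genes (all-gene median 1.10). Of the 1038 genes in B at T0 and no farther from the border than ZEB1, 41.1% were in A in TamR and 35.7% had another sign at some E2 time. Genes in B at T0 and in A at T16, T24 and in TamR numbered 109, or 0.553% of all. This pattern was taken from ZEB1 itself, and the 77.4% of genes in A at T0 could not meet it. The share is thus no measure of how unusual ZEB1 was.

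Within ZEB1, the start and the rest of the gene body differed. The bin with the start of the gene model had -0.92 at T0, -0.86 at T1, 0.14 at T4, 0.68 at T16, 0.79 at T24 and -0.34 in TamR, so it was in A at the last 3 E2 times and in B in TamR. The last bin of the body had -1.60 at T0, -0.065 at T1, -0.16 at T4, 0.15 at T16, 0.24 at T24 and 0.98 in TamR. The A call in TamR therefore came from the downstream bins of the body, and with the start bin alone no member changed compartment from T0 to TamR. Averaged over gene and flanks, ZEB1 was in A at T0 already, with 0.29, and in TamR with 1.68.

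The bins around ZEB1 were higher than at T0 as well. At T0 its start sat in a B compartment of 10 bins (1.0 Mb), and of these 10 bins 5 were in A at T1, 6 at T4, 9 at T16, 9 at T24 and 8 in TamR. The mean over the 10 was -0.92 at T0, -0.20 at T1, 0.13 at T4, 0.47 at T16, 0.81 at T24 and 0.87 in TamR. Of the 13 bins of gene and flanks, 4 were in A at T0 and 11 in TamR. The left neighbour ZNF438, a zinc finger gene that starts in one of the switched bins, had -0.43 at T0, 0.31 at T1, 0.29 at T4, 0.57 at T16, 1.22 at T24 and 1.10 in TamR. The right neighbour ARHGAP12 was in A in every library, with 2.56 at T0 and 3.63 in TamR.

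**Figure D2:**
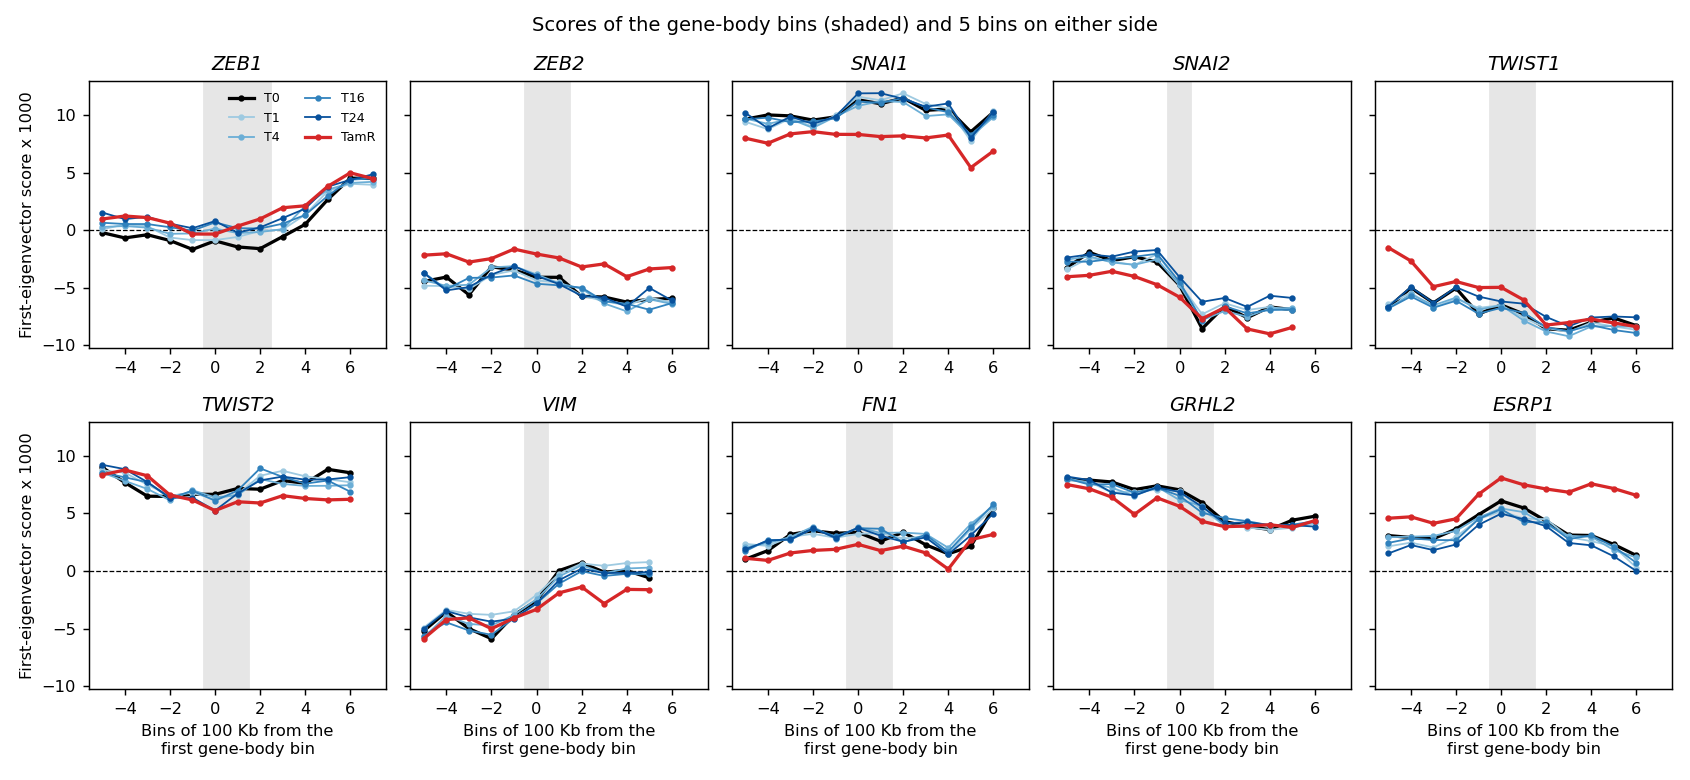
Scores (y axis, multiplied by 1000) of the gene-body bins (grey) and the 5 bins on either side, in order along the chromosome in steps of 100 Kb; black is T0, blue the E2 time points and red TamR. The TamR line stands above all parental lines in every bin at ZEB2 and ESRP1 and below them in every bin at SNAI1, while at ZEB1 the lines spread around 0.

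ZEB2, the paralog of ZEB1, was in B in all libraries. It lies on the - strand at chr2:145121931-145278624 and had -4.09 at T0, -4.45 at T1, -4.22 at T4, -4.72 at T16, -4.33 at T24 and -2.24 in TamR. The 5 parental values spanned 0.63 and TamR stood above them by more than that width. All 12 bins of gene and flanks were higher in TamR than in any parental library, with means of -4.88 at T0 and -2.69 in TamR. The neighbour GTDC1, a glycosyltransferase gene that touches just the 5 left bins, had their mean, -4.15 at T0 and -2.22 in TamR. Even so the B compartment around ZEB2 was longer in TamR, 13.9 Mb against 10.2 Mb at T0, but 13.2 Mb at T24.

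SNAI1, which encodes the E-box repressor Snail, had the highest scores of the list and, on the gene-body score, the largest difference between TamR and T0. With gene and flanks averaged ESRP1 differed more (2.70 against -2.37), and by percentile rank within the library TWIST1 did (9.83 against -5.98 percentile points). At chr20:48599517-48605423 (+ strand) it had 11.14 at T0, 11.43 at T1, 10.99 at T4, 11.10 at T16, 11.88 at T24 and 8.21 in TamR. TamR was 2.93 below T0, a difference larger in size than that of 83.6% of genes, and below the parental range by more than its width of 0.89. All 12 bins were lower in TamR than in every parental library, and the gene stayed in an A compartment of 8.7 Mb at T0 and 8.1 Mb in TamR. Nearby RNF114 had 11.31 at T0 and 8.31 in TamR, and UBE2V1 had 11.22 and 8.15. RNF114 lies in a gene-body bin of SNAI1 and UBE2V1 touches the other, so their scores partly repeat that of SNAI1. PTPN1, a tyrosine phosphatase gene at the right edge of the window, had 9.64 and 6.63 and was picked after its values were seen.

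SNAI2, which encodes the paralog Slug, lay deeper in B in TamR. At chr8:49830157-49834299 (- strand) it had -4.78 at T0, -4.63 at T1, -4.78 at T4, -4.51 at T16, -4.08 at T24 and -5.81 in TamR. TamR was below the parental range by more than its width of 0.71. With the flanks, 10 of 11 bins were lower in TamR than at T0. The mean of the 5 left bins was -2.58 at T0 and -4.05 in TamR, and that of the 5 right bins -7.26 and -8.08.

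TWIST1, a basic helix-loop-helix factor, was the deepest in B in every parental library, but not in TamR, where SNAI2 was lower. The TWIST1 gene model at chr7:19060614-19157259 (- strand) had -6.87 at T0, -7.05 at T1, -7.18 at T4, -6.96 at T16, -6.28 at T24 and -5.50 in TamR. The TamR value was above all parental values by less than their range of 0.90. The difference was one-sided: the 5 left bins, which lie in the histone deacetylase gene HDAC9, had a mean of -6.06 at T0 and -3.70 in TamR, and the 5 right bins -8.22 and -8.07. The bin farthest to the left had -6.70 at T0 and -1.51 in TamR.

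TWIST2, its paralog, was in A in all libraries. At chr2:239756673-239832230 (+ strand) it had 6.91 at T0, 6.45 at T1, 6.49 at T4, 6.54 at T16, 5.99 at T24 and 5.63 in TamR. The TamR value was the lowest, by less than the parental range of 0.92. Here the lower scores lay on the right, over the histone deacetylase gene HDAC4, with a right-flank mean of 7.99 at T0 and 6.23 in TamR, against 7.26 and 7.63 on the left.

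Of the mesenchymal genes, VIM was in B in every library and lay at the edge of its compartment. At chr10:17270240-17279592 (+ strand), within 1 bin, it had -2.58 at T0, -2.07 at T1, -2.45 at T4, -2.81 at T16, -2.81 at T24 and -3.32 in TamR. TamR was the lowest, by less than the parental range of 0.74. The larger difference lay to its right: the mean over the 5 right bins was 0.024 at T0, 0.47 at T1, 0.076 at T4, -0.41 at T16, -0.20 at T24 and -1.86 in TamR. At T0 3 of these 5 bins were in A and in TamR none, so that the B run with VIM reached farther to the right, with 2.1 Mb at T0 and 2.6 Mb in TamR. At T16 that run was also 2.6 Mb long. The genes that start in the switched bins were named for that position, and their scores are means of these same right bins. ST8SIA6, a sialyltransferase gene, had 0.38 at T0 and -1.63 in TamR, HACD1, a fatty acid elongation gene, had 0.044 and -1.59, and STAM, an adaptor of endosomal sorting, had -0.27 and -1.60, its start bin alone being in A at T0.

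FN1 was in A throughout. At chr2:216225163-216300796 (- strand) it had 2.97 at T0, 3.26 at T1, 3.55 at T4, 3.70 at T16, 3.41 at T24 and 2.05 in TamR. The 4 E2 values were above T0 and TamR was below the parental range by more than its width of 0.72. Its A compartment measured 12.9 Mb at T0, 13.1 to 13.4 Mb in E2 and 8.4 Mb in TamR. The 4.4 Mb lost at the far end (44 bins, chr2:224000001-228400000) had a mean of 2.31 at T0 and -3.76 in TamR, and all 44 bins were lower in TamR than in every parental library. Of these bins, 44 were in A at T0, 40 to 43 in E2 and 5 still in TamR. The start of FN1 lies 7 bins from the nearer, left end of the compartment in TamR and 8 at T0. SERPINE2, a protease inhibitor gene, and IRS1, an adaptor of insulin and IGF receptors, are among the 18 protein-coding genes in the lost stretch and were named after the values were seen.

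The epithelial regulators GRHL2 and ESRP1 both lie on the long arm of chromosome 8, and the lengths of their compartments differed more between T0 and TamR than those of the other 8 members. GRHL2, at chr8:102504667-102681954 (+ strand), had 6.49 at T0, 6.11 at T1, 5.91 at T4, 5.79 at T16, 6.22 at T24 and 4.97 in TamR. ESRP1, at chr8:95653302-95719694 (+ strand), had 5.78 at T0, 4.88 at T1, 5.27 at T4, 4.81 at T16, 4.74 at T24 and 7.79 in TamR. Both were below T0 at all 4 E2 times, and in TamR they stood on opposite sides of the parental values, GRHL2 below and ESRP1 above, each by more than the parental range (0.70 and 1.04).

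At T0 the pair sat in separate A compartments, of 1.6 Mb with ESRP1 and of 5.6 Mb with GRHL2, while in TamR a single A compartment of 11.9 Mb, chr8:92200001-104100000, held both. The 2.2 Mb between them had a mean of -2.91 at T0, -2.19 at T1, -2.01 at T4, -1.63 at T16, -1.69 at T24 and 2.57 in TamR. Of its 22 bins, 3 were in A at T0, 9 at T1, 11 at T4, 12 at T16, 11 at T24 and 22 in TamR, and 20 were higher in TamR than in every parental library. The 7 protein-coding genes of this stretch are GDF6, a growth factor gene, UQCRB, MTERF3, PTDSS1, SDC2, which encodes the cell surface proteoglycan syndecan-2, CPQ and TSPYL5. On the other side, the 25 bins (2.5 Mb) before the T0 compartment of ESRP1 had means of -3.23 at T0, -4.43 at T24 and 0.89 in TamR. In TamR all 25 were in A, 1 was at T0, and the stretch holds SLC26A7, RUNX1T1, a transcriptional corepressor gene, and TRIQK.

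The GRHL2 compartment was already longer in E2, from 5.6 Mb at T0 to 5.9 Mb at T1, 6.3 Mb at T4, 6.8 Mb at T16 and 6.7 Mb at T24, by bins added on the side of ESRP1. The ESRP1 compartment had 1.6 Mb at T0, T1, T4 and T16 and 1.3 Mb at T24. Within their T0 limits the compartments differed in direction: all 16 bins of the ESRP1 compartment were higher in TamR than in every parental library (mean 3.22 at T0, 5.67 in TamR), and 43 of the 56 bins of the GRHL2 compartment were lower (mean 5.67 at T0, 4.68 in TamR). Close to ESRP1, the right flank stood out, with a mean of 2.84 at T0 and 7.05 in TamR. Of the genes there, chosen after the values were seen, PLEKHF2 had 2.31 at T0 and 7.16 in TamR, the cyclin gene CCNE2 3.74 and 6.98, and TP53INP1, a p53-inducible gene, 3.13 and 6.84. Neighbouring bins are not independent, and these lengths rest on single libraries.

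**Figure D3:**
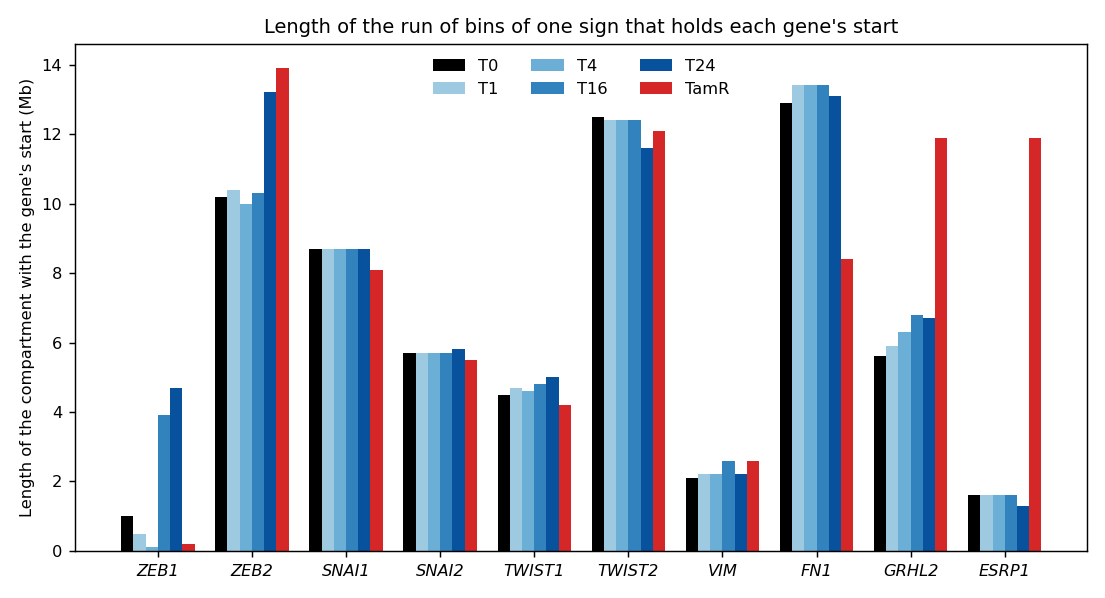
Length in Mb (y axis) of the unbroken run of bins of one sign that holds the start of each gene, in the 6 libraries (bars; black T0, blue E2, red TamR). GRHL2 and ESRP1 share 1 run of 11.9 Mb in TamR after 5.6 and 1.6 Mb at T0, the FN1 run is shorter in TamR (8.4 against 12.9 Mb), and the ZEB1 run ranges from 0.1 Mb at T4 to 4.7 Mb at T24.

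Across the list, as over all genes, TamR differed from the parental libraries more often in level than in sign. TamR was above the parental range by more than its width in 2 members, ZEB2 and ESRP1, against 17.8% of all genes. It was below by the same measure in 4, SNAI1, SNAI2, FN1 and GRHL2, against 21.3%. In 6 members of constant sign (ZEB2, SNAI1, TWIST1, TWIST2, FN1 and GRHL2) TamR was nearer to 0 than every parental library, against 42.8% of all genes, and in 3 (SNAI2, VIM and ESRP1) it was farther from 0, against 23.7%. All 4 E2 libraries were above T0 in 2 members (27.3% of all genes) and below it in 4, ZEB2, TWIST2, GRHL2 and ESRP1 (25.4%). These last 4 counts were defined after the values were seen. The median size of the difference between TamR and T0 was 1.45 over the members and 1.31 over all genes, and that between T24 and T0 was 0.65 and 0.75. Over all genes TamR was lower than T0 by a median of 0.38 (median difference -0.38, lower in 58.0%), and the signed median of the members was -0.83.

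By bins, 10 of the 119 in the windows, or 8.40%, had another sign in TamR than at T0, against 13.9% of all bins. The windows of ZEB1 held 7 (B to A) and VIM 3 (A to B), and the windows of the other 8 members, 95 bins, held 0. Most of these were weak bins: when every bin whose absolute score fell under the 10th percentile of its library was left out, 1 of 104 switched, against 7.69% of all bins under the same filter.

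A wider set of EMT genes gave the surroundings of the pathway. Of 25 epithelial genes (junction proteins, keratins and epithelial regulators), all were in A at T0 and 24 in TamR, and of 35 mesenchymal genes (other EMT factors, TGF-β signalling, matrix and matrix-modifying genes), 21 and 22, where 77.4% of all protein-coding genes were in A at T0 and 78.1% in TamR. The median difference between TamR and T0 was -0.85 in the epithelial list (16 lower, 9 higher) and -0.48 in the mesenchymal list (22 lower, 13 higher), beside -0.38 over all genes. TamR was below the parental range by more than its width for 10 epithelial genes and above it for 1, and for 6 mesenchymal genes on either side, where 21.3% of all genes were below and 17.8% above.

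In each list 1 gene had another sign in TamR than at T0, A to B in the epithelial and B to A in the mesenchymal list, beside 4.45% and 5.15% of all genes. In the epithelial list this was the tight junction scaffold gene TJP1, with 2.99 at T0, parental values from 2.64 to 3.47 and -2.62 in TamR. The next largest differences were those of MIR200CHG, host of miR-200c and miR-141, and of ST14, which encodes the membrane protease matriptase, with 5.69 at T0 and 2.07 in TamR. OVOL2, a repressor of ZEB1, was higher, with 3.32 and 5.70, and CLDN3 and GRHL3 differed by 1.00 and 0.88. In the mesenchymal list the E-box factor gene TCF4 switched from B to A, with -6.44 at T0, at most -6.16 in any parental library and 1.52 in TamR. KLF8, a zinc finger factor of EMT, had -5.37 at T0 and -0.33 in TamR, and ACTA2, smooth muscle actin, 0.99 and 5.85. The receptor gene TGFBR2 had -0.63 and -6.57, and LOX, a collagen crosslinking enzyme gene, -1.69 and -3.52. During E2, 0 epithelial and 2 mesenchymal genes, COL5A2 and ACTA2, had another sign than T0 at some time, beside 5.31% of all genes.

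Both loci of the miR-200 family were in A in all libraries. The locus of miR-200c and miR-141 (chr12:7072862-7073354) had 12.08 at T0, 13.32 at T1, 13.25 at T4, 14.13 at T16, 14.37 at T24 and 7.65 in TamR, so that both seed groups shown above are encoded in a bin whose TamR score was below all 5 parental scores. The locus of miR-200b, miR-200a and miR-429 (chr1:1102484-1104467) had 12.00 at T0, 14.13 at T1, 11.94 at T4, 10.93 at T16, 14.06 at T24 and 9.98 in TamR, also the lowest of the 6. That second locus was added after the values of the first were seen.

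**Figure D4:**
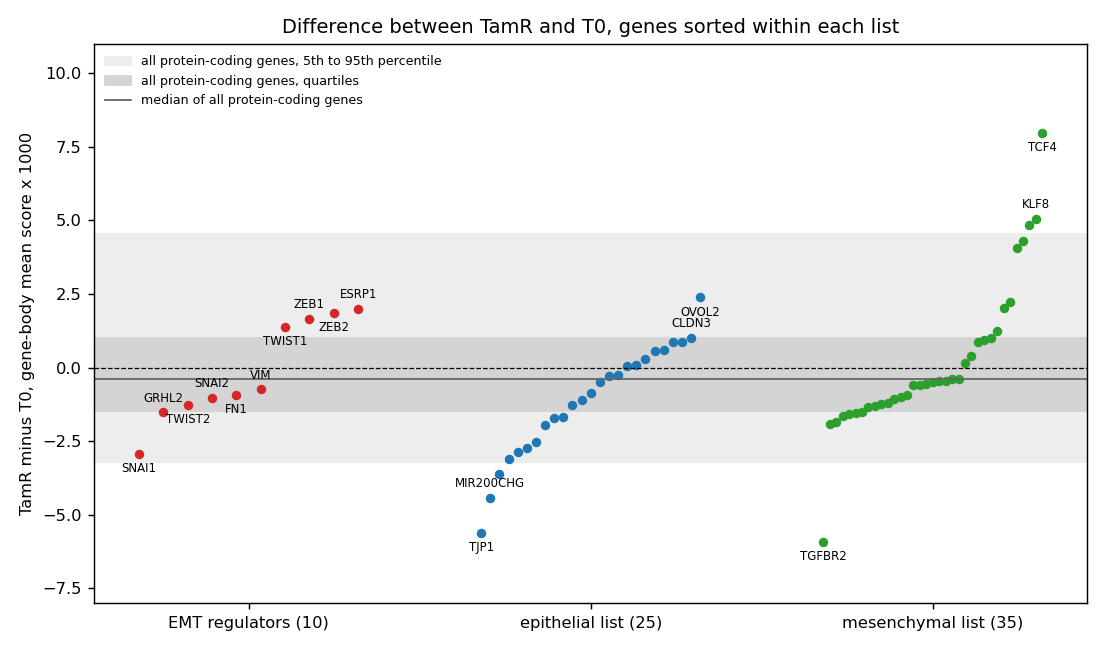
Difference in gene-body score between TamR and T0 (y axis, multiplied by 1000), genes sorted within the 10 EMT regulators, the 25 epithelial and the 35 mesenchymal genes; the dark and light grey bands hold the quartiles and the 5th to 95th percentiles of all scored protein-coding genes. All 10 regulators lie inside the light band, from SNAI1 at -2.93 up to ESRP1, while TJP1, MIR200CHG, ST14 and TGFBR2 lie below it and TCF4, KLF8 and ACTA2 above it.

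The luminal identity of the line was checked at the loci of its markers, which shows only their compartment. KRT8, KRT18 and CDH1 were in A in all 6 libraries. ESR1, the estrogen receptor α gene, had 2.89 at T0, 1.23 to 2.24 in E2 and -0.51 in TamR. GATA3, a luminal transcription factor gene, had 2.20 at T0, 0.79 to 1.55 in E2 and -0.76 in TamR. Thus 2 of the 7 luminal markers went from A to B, beside 4.45% of all genes. FOXA1 had 2.40 at T0, 0.69 to 1.47 in E2 and 0.23 in TamR. Its TamR value was below the parental values by less than their range of 1.70. The progesterone receptor gene PGR had -0.28 at T0 and -6.62 in TamR, but was in A at all 4 E2 times, with 0.29 to 0.85. Of 4 basal markers all were in A at T0 and in TamR. KRT14 had 14.08 and 14.03, KRT5 9.68 and 11.13, TP63 1.53 and 5.60, and ACTA2 the values given above. At T24 TP63 and ACTA2 were in B, with -0.21 each. The part of any change in cell state in the scores of the 10 regulators was not tested.

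The genes on other chromosomes with the scores closest to a member over the 6 libraries (Euclidean distance on the same scale) gave each pattern its nearest likeness. For ZEB1 these were CACNA1E, a calcium channel gene (distance 0.62), VEPH1 (0.83) and CDH4, a cadherin gene (0.94). CACNA1E had -1.15 at T0, 0.12 at T16, 0.03 at T24 and 0.69 in TamR. Unlike ZEB1, VEPH1 was in B in TamR, with -0.34, and CDH4 was in A there, with 0.23. For ESRP1 they were JADE3 (0.43), DRD1 (0.51) and CTAGE1 (0.63), and PDRG1 (0.52) was among those of GRHL2. Nearest to ZEB2 were CHORDC1 (0.42), SOX21 and ARL6, to SNAI1 SPTBN4 (0.60), LTBP4 and CD79B, and to SNAI2 ADGRA3 (0.42), LRRC53 and HTR1E. TWIST1 was closest to ADGRL3 (0.35), GABRB1 and CYP7B1, and TWIST2 to ANP32A (0.35), HBEGF and SLC4A9. For VIM the genes were RCN1 (0.44), RXRG and CCNA1, and for FN1 ANK1 (0.35), ARPC5 and DAAM2.

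The protein-coding neighbours not yet described had the following scores. Right of ZEB2, the nearest gene start was that of ACVR2A, an activin receptor gene, 3323 Kb away and outside the window. ACVR2A had -4.43 at T0 and -0.85 in TamR. Beside SNAI2, CLXN had -2.31 and -4.01, and PPDPFL -8.54 and -7.68. FERD3L, in the same bin as the start of TWIST1, had -7.27 and -6.05, and ASB1, left of TWIST2, 7.68 and 8.77. Thus PPDPFL and ASB1 were higher in TamR while SNAI2 and TWIST2 beside them were lower. TRDMT1, left of VIM, had -3.19 and -3.70, and beside FN1 ATIC had 3.32 and 2.10 and MREG 5.45 and 3.18. At GRHL2, ZNF706 had 7.81 and 6.77 and NCALD 4.48 and 4.04, and at ESRP1, VIRMA had 4.27 and 5.60 and DPY19L4 4.91 and 7.30. Of the last 7 genes, TRDMT1, ATIC, NCALD and DPY19L4 touch a gene-body bin of their member, so that their scores partly repeat its score. MREG, ZNF706 and VIRMA touch none, and were lower or higher in TamR as their member was.

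The windows also differed in make-up. Their GC content ran from 36.2% around TWIST1 to 48.4% around TWIST2, with 48.1% around SNAI1, and the number of protein-coding gene starts from 2 around ZEB2 and TWIST1 to 13 around ESRP1 and 12 around SNAI1.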

How the data were processed

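The authors performed TCC in hormone-starved T47D cells, after 4 lengths of E2 treatment and in TamR cells, and 1 track of scores per condition was used here, called a library. Per the study's methods, read pairs were aligned iteratively to hg19 with bowtie2, filtered, binned at 100 Kb and corrected by iteration, contacts inside a chromosome were set aside, and HiCLib gave the first eigenvector. The authors deposited this score per bin, with unit length within a library and not scaled between libraries. Depth is unknown from these files, so that no counting interval could be given. Per the study's reporting summary the experiments were replicated, and whether replicates were pooled in a track is not stated in the sources used here. Score correlations across bins were 0.985 to 0.996 for the 10 parental pairs and 0.894 to 0.901 for the 5 pairs with TamR.

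Bins at 0 in any library were left out. Gene-body bins came from GENCODE 44 mapped to GRCh37, whose chromosome lengths matched the last bins of all 23 chromosomes, and scores were averaged per gene. RefSeq sequences came from tables of GRCh38.p14 and were placed in GRCh37 by exact match. No test or p-value was used: counts stand beside the share of all protein-coding genes or bins. The members and lists were chosen with earlier results of these data known. Named were all members, their neighbours and the genes starting in switched bins, the wider-list genes that switched or had the 3 largest differences per direction, and the 3 closest patterns, apart from a few genes that are not reported here. Python 3.11.15, numpy 2.4.6 and pandas 2.3.3 were used, and the steps were tested on simulated tracks.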

Additional observations from a re-analysis of the deposited data

How the results depend on the processing

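No paired analysis was possible because there is only 1 track of scores for each condition. All 70 differences of the 10 members under the alternatives kept their direction. In 10 of these TamR was compared with the mean of the 5 parental libraries and not with T0. Dividing scores by each library's standard deviation could hardly reverse a direction, since scores have near unit length in every library. Sizes varied: the ZEB1 difference was 1.66 in the main setting, 0.587 with the start bin alone and 0.594 against the parental mean. That of ESRP1 was larger against the parental mean than in the main setting. The counts of members were less stable than the directions. With the start bin alone, members that changed compartment from T0 to TamR numbered 0 and wider-list genes 5, in place of 1 and 2. With the gene and its flanks averaged together, members numbered 0 from T0 to TamR and 0 during E2, and wider-list genes 4. With each library's median as the border, or with ranks, wider-list genes numbered 6. The ZEB1 call thus rests on the bins that were averaged. Of the bins around the members, 10 switched, against 6 with 2 bins on either side, 22 with 10 bins, 1 without weak bins and 6 with the mean of the 5 parental libraries as the reference. With each parental library left out in turn, 6 to 8 members had TamR outside the parental range by more than its width, against 6, while the start bin alone gave 4, the gene with its flanks 7 and ranks 8, and with each E2 library left out 1 member changed compartment during E2. The depth of the libraries is unknown, and scores close to 0 cannot be placed firmly in either compartment.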
